A study of Homo sapiens with 6 samples.

Results

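The genes described here encode the proteins that prepare, start and carry out DNA replication in human cells: the origin recognition complex, the licensing factors, the MCM2-7 helicase with its activators, the replicative polymerases, the sliding clamp and its loaders, and the proteins that guard the fork and rebuild chromatin behind it. A list of 56 gene symbols was taken, and a member had to reach a mean of at least 10 normalized counts over the 6 libraries. All 56 did, with means from 268 (CCNE1) to 20295 (MCM6), so the filter removed none, and they stand among 13465 genes tested of 17202 in the table. The rule for members uses no difference between the groups, but the list was drawn up with earlier results of these data known.

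Gene-level RNA-seq values were deposited for DND41, a human T-cell acute lymphoblastic leukaemia line, in 3 libraries of cells given MB1-47 and 3 of cells given its vehicle DMSO. MB1-47 is a mitochondrial uncoupler, a compound that lets protons cross the inner mitochondrial membrane without ATP being made. Both groups were kept for 24 h in RPMI with 10% FBS, and the labels give the dose as 4 mM, a unit repeated as written and not checked. The labels speak of triplicate plating of 1 cell line, so the tests see only the spread among these libraries, part of which may be technical. Of 17 T-lineage markers 16 were in the table, each with a mean of at least 10, among them CD3D, CD3E, CD7, RAG1 and TLX3. PTCRA was absent, and others were low. CD5 read 0, 25.9 and 2.01 normalized counts with DMSO and averaged 17.8 with MB1-47. CD2 averaged 49.2 and 33.8 with DMSO and MB1-47, and TCF7 206 and 200. The summed T-lineage markers ran from 100460 to 102686 normalized counts with DMSO and from 62751 to 71735 with MB1-47. Summed myeloid and erythroid markers (3 of 10 in the table) stayed between 16.6 and 44.9, with LYZ and CD14 below the filter, and epithelial and fibroblast markers (4 of 8) between 11.7 and 101. Summed B-lineage markers (6 of 8) lay between 16814 and 18078 with DMSO and between 7558 and 8477 with MB1-47, most of it CD79A. EBF1 went the other way, with 903, 695 and 797 with DMSO and 944, 1246 and 1027 with MB1-47. The part of any of these lists in the results was not tested.

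Replication starts in G1, when the origin recognition complex, CDC6 and CDT1 load MCM2-7 rings onto DNA, a step called licensing. At the start of S phase the kinase CDC7-DBF4 and cyclin-dependent kinases recruit CDC45 and GINS to each ring, which makes the active helicase, and polymerase alpha-primase, delta and epsilon then copy the strands. Many of these genes are textbook targets of E2F transcription factors and are transcribed most around the passage from G1 to S, and proliferating leukaemia cells express them strongly.

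E2F sites are a known feature of these promoters, and the promoter windows were searched after the values were seen. RefSeq windows of 300 bases (250 before to 50 after the annotated start, build GRCh38.p14) were found for 48 of 56 members. Only the first window listed for a gene symbol was used. Its start can differ from the gene start in GENCODE 29. For MCM7, GINS2, UHRF1 and LIG1 the whole window lay inside the GENCODE 29 gene. An E2F-type word, defined as TTTCCCGC, TTTCGCGC, TTTGCCGC or TTTGGCGC on either strand, with overlapping matches allowed, was present in 20 of 48 windows (41.7%). The same words occurred in 5.44% of 9774 windows of genes tested, in 7.16% of the 2038 windows of other genes lower with MB1-47, and in 3.33% of all 27305 windows. The list holds many textbook E2F targets, so a higher share among members was built into the list. Only 5 members with a window did not pass the test, 1 of them with the word, so the word cannot be related to the change. The stretches below, 60 bases each and written 5′ to 3′ along the gene's strand, show the match in capitals for members of several steps. LIG1 is included as the one member with a match whose change did not pass the test.
CDC6 (chr17:40287860-40287919, plus strand): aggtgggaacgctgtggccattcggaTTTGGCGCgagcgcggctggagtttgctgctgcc
MCM2 (chr3:127598389-127598448, plus strand): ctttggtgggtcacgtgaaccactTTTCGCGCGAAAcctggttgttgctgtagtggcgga
MCM3 (chr6:52284883-52284942, minus strand): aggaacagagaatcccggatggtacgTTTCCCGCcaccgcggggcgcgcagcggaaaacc
MCM6 (chr2:135876560-135876619, minus strand): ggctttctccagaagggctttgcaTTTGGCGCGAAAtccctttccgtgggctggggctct
MCM7 (chr7:100101551-100101610, minus strand): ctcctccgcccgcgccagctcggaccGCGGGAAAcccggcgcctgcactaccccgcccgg
GINS2 (chr16:85688952-85689011, minus strand): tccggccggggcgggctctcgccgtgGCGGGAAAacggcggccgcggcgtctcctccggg
POLA1 (chrX:24693755-24693814, plus strand): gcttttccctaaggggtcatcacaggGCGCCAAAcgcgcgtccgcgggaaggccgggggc
PCNA (chr20:5126648-5126707, minus strand): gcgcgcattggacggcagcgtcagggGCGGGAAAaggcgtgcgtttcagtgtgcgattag
UHRF1 (chr19:4909461-4909520, plus strand): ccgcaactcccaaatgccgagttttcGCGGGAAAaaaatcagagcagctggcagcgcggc
LIG1 (chr19:48170425-48170484, minus strand): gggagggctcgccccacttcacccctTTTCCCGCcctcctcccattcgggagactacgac
In MCM2 and MCM6 a match on each strand overlapped, giving 2 matches in 1 run of capitals. Members with an E2F-type word had a median log2 change of -1.10 and those with a window but no word -0.80, as a description. The 8 members without a window are in neither median. They were MCM4 (-2.31), CCNE2 (-2.13), MCM5 (-1.79), GINS4 (-1.20), DSCC1 (-1.04), RPA3 (-0.93), POLD3 (-0.61) and RPA2 (-0.39). A CCAAT box was present in 54.2% of members' windows and 37.0% of tested genes' windows, and the E-box CACGTG in 16.7% and 10.1%. The word TTTGAA, part of the element found in many G2/M promoters, was present in 2.08% (DBF4) and 10.1%. In windows of other genes lower with MB1-47 the shares were 38.7% for CCAAT, 13.5% for CACGTG and 9.91% for TTTGAA. A match is a description of these letters and does not show that a factor bound there.

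MB1-47 lowered nearly the whole replication set. Of 56 members 51 passed the threshold (limma moderated test, Benjamini-Hochberg adjusted p under 0.05), all of them lower, and none was higher. Among all 13465 genes tested, 19.8% were lower, 18.3% higher and 38.1% passed in either direction. The median log2 change of the members was -0.997 against 0.02 over all genes tested. At least a 2-fold fall was found in 27 members, against 5.99% of all genes, and the 3 MB1-47 values lay below all 3 DMSO values in 51 members (25.2% of all genes, with 49.3% of all genes free of overlap in either direction). The members that did not pass were ORC2, ORC4, ORC5, RFC1 and LIG1. All values are relative levels in bulk RNA, so fewer cells in S phase and less of each RNA per cell cannot be told apart.

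**Figure D1:**
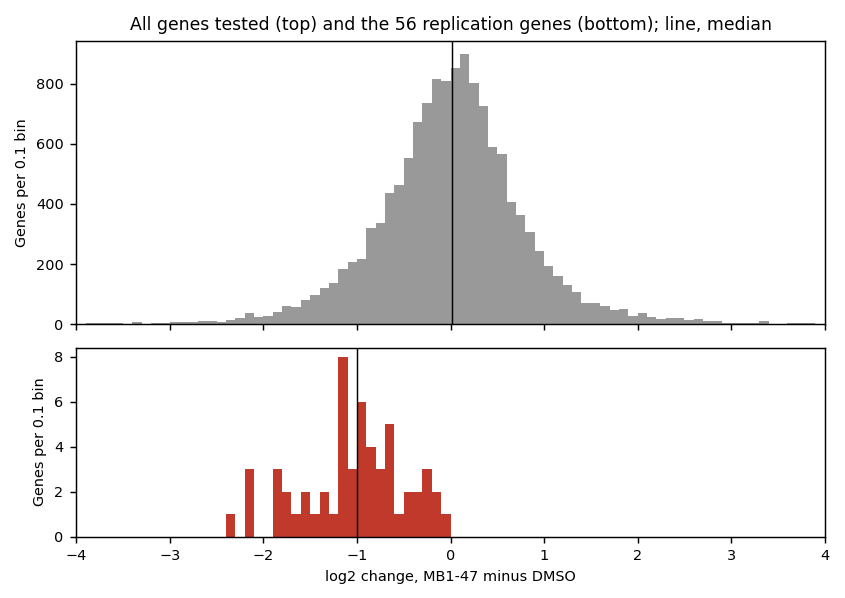
Histograms of the log2 change (MB1-47 minus DMSO, x axis, in bins of 0.1) for all 13465 genes tested (top) and the 56 replication genes (bottom), with the number of genes per bin on the y axis; the axis is drawn from -4 to 4. Vertical lines are the medians, 0.02 and -0.997, and every replication gene lies below 0.

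The libraries of a group gave like values for this set. Taking each member's distance from its DMSO mean, the median distances were 0.04, -0.05 and 0.03 on the log2 scale for DMSO replicates 1, 2 and 3. They were -0.97, -1.07 and -0.95 for MB1-47 replicates 1, 2 and 3. The second principal component of all genes, with 18.5% of the variance, separated DMSO replicate 1 from DMSO replicates 2 and 3, and that library did not stand apart in the median of the members.

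**Figure D2:**
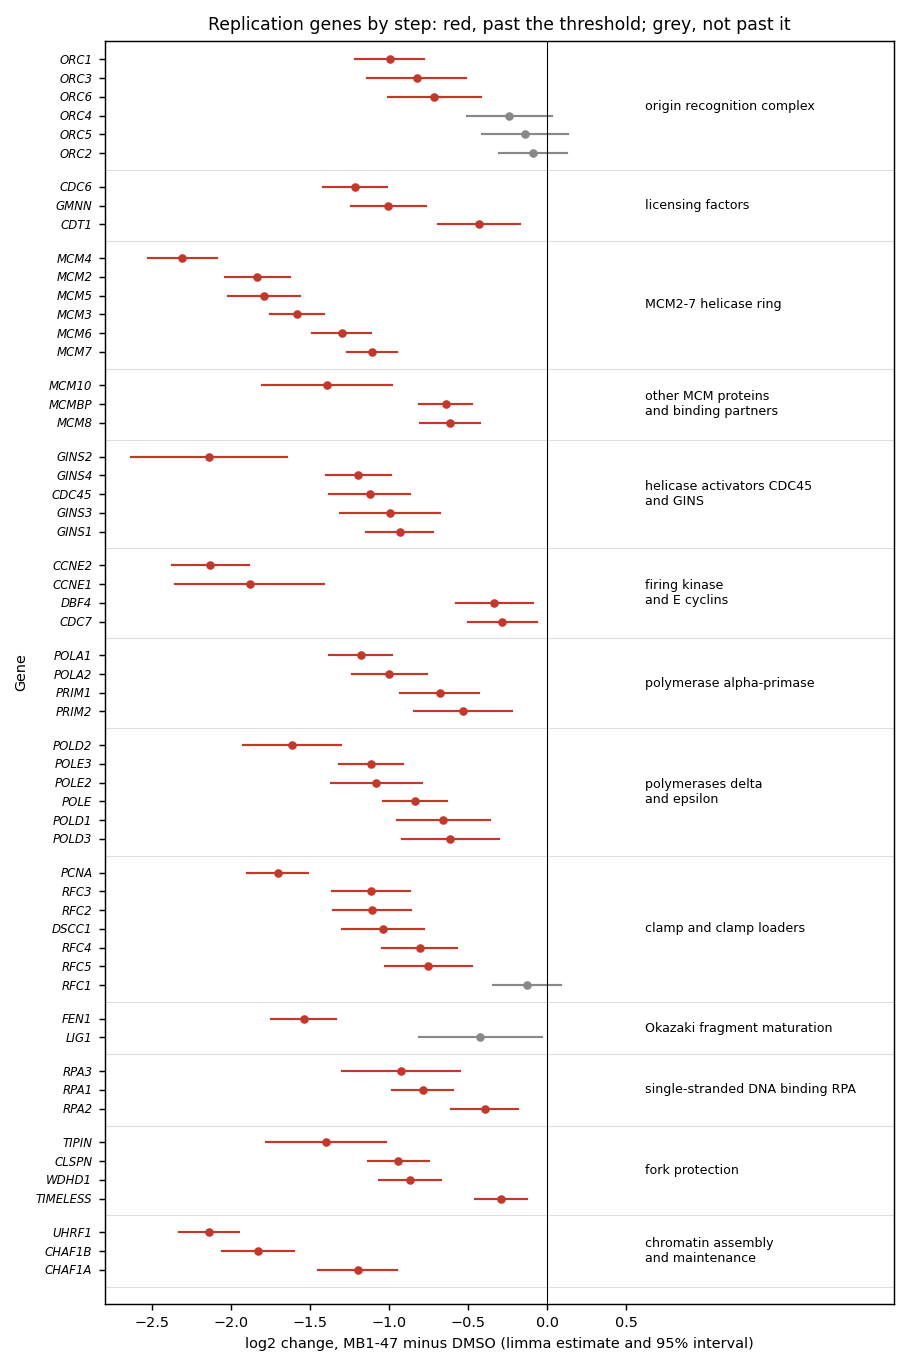
Log2 change of each of the 56 genes (x axis; limma estimate with its 95% interval), grouped by step in replication (y axis, step names at the right). Red genes passed the threshold and grey genes did not; the grey genes are ORC2, ORC4, ORC5, RFC1 and LIG1.

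The origin recognition complex, which marks origins through the cell cycle, went down in 3 of its 6 subunits. ORC1 is the subunit whose protein is known to be removed and remade each cycle. ORC1 read 3109, 2978 and 3358 normalized counts in DMSO replicates 1, 2 and 3 and 1472, 1645 and 1617 in MB1-47 replicates 1, 2 and 3. The groups were well apart, and ORC1 changed by -0.996 ± 0.10 (log2 ± SE, adjusted p = 2.1e-05). ORC3 changed by -0.83 ± 0.14 and ORC6 by -0.72 ± 0.13. ORC2, ORC4 and ORC5 overlapped between the groups: ORC2 read 3899, 3830 and 3288 with DMSO and 3616, 3406 and 3313 with MB1-47. The 95% intervals of their log2 changes were -0.30 to 0.12 for ORC2, -0.51 to 0.03 for ORC4 and -0.41 to 0.13 for ORC5. ORC4 stood at -0.24 and passed without DMSO replicate 2 (-0.35, adjusted p = 0.0400; range over 15 alternatives 0.0400 to 0.473), whereas without DMSO replicate 1 it was -0.14 (adjusted p = 0.427) and with equal library totals -0.11.

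All 3 licensing factors fell. CDC6, the ATPase that brings MCM2-7 to origins, read 3419, 3460 and 3713 with DMSO and 1495, 1539 and 1525 with MB1-47, and changed by -1.21 ± 0.09 (adjusted p = 3.2e-06). CDT1, which carries the MCM ring to the origin, stood at 2184, 2249 and 2155 with DMSO and at 1392, 1805 and 1713 with MB1-47. MB1-47 replicate 1 was the lowest of the CDT1 values, and the change was -0.43 ± 0.12 (adjusted p = 0.0131; -0.30 and adjusted p = 0.0724 when libraries were scaled to equal totals). GMNN encodes geminin, the inhibitor that holds CDT1 from S phase to mitosis, and read 7843, 5971 and 7072 with DMSO and 3525, 3236 and 3588 with MB1-47 (-1.01 ± 0.11). The CDT1 to GMNN ratio was therefore higher with MB1-47 in all 3 libraries than in any DMSO library, by 0.57 on the log2 scale.

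The MCM2-7 ring, the motor of the replicative helicase, fell in all 6 subunits, each by more than 2-fold, with a median log2 change of -1.69. MCM4 changed most of all members: it read 19327, 20452 and 17371 with DMSO and 4119, 4019 and 3400 with MB1-47, a log2 change of -2.31 ± 0.10 (adjusted p = 1.9e-07) that was rank 109 from the largest fall among all genes tested. MCM2, on chromosome 3 from 127598223 to 127622436 (GENCODE 29, GRCh38), read 14346, 14939 and 16414 against 3802, 4544 and 4481 (-1.84 ± 0.09). MCM5 read 7645, 7935 and 8646 against 2172, 2667 and 2169 (-1.79 ± 0.10). In each of the 6 subunits every MB1-47 library was lower than every DMSO library. MCM3 changed by -1.58 ± 0.08, MCM6 by -1.30 ± 0.08 and MCM7, the least changed subunit, by -1.11 ± 0.07. MCM7 read 23998, 23256 and 24746 with DMSO and 10672, 11372 and 11336 with MB1-47. The 95% intervals of MCM4 (-2.53 to -2.09) and MCM7 (-1.27 to -0.95) did not overlap. These were picked as the most and least changed subunits after their values were seen, so this is a description only.

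The other MCM proteins and partners also fell, with a median of -0.64. MCM8, which acts in recombination with MCM9, changed by -0.62 ± 0.09, and MCMBP, a binding partner of MCM subunits, by -0.64 ± 0.08. MCM10, which helps the assembled helicase to start moving, read 4521, 3982 and 3864 with DMSO and 2254, 1331 and 1275 with MB1-47. MB1-47 replicate 1 was higher than its other replicates, the groups did not overlap, and MCM10 changed by -1.39 ± 0.19 (adjusted p = 0.00017).

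Helicase activators fell as well. GINS is a complex of 4 subunits that holds CDC45 onto the MCM ring. GINS2 read 1579, 1625 and 1777 with DMSO and 575, 300 and 306 with MB1-47. As with MCM10, MB1-47 replicate 1 was the highest of its group, and GINS2 changed by -2.14 ± 0.23 (adjusted p = 3.1e-05). CDC45 read 5382, 4859 and 5624 against 2163, 2301 and 2858 (-1.12 ± 0.12). GINS4, GINS3 and GINS1 changed by -1.20 ± 0.09, -0.995 ± 0.14 and -0.93 ± 0.10. All 5 activators were lower in every MB1-47 library than in any DMSO library.

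**Figure D3:**
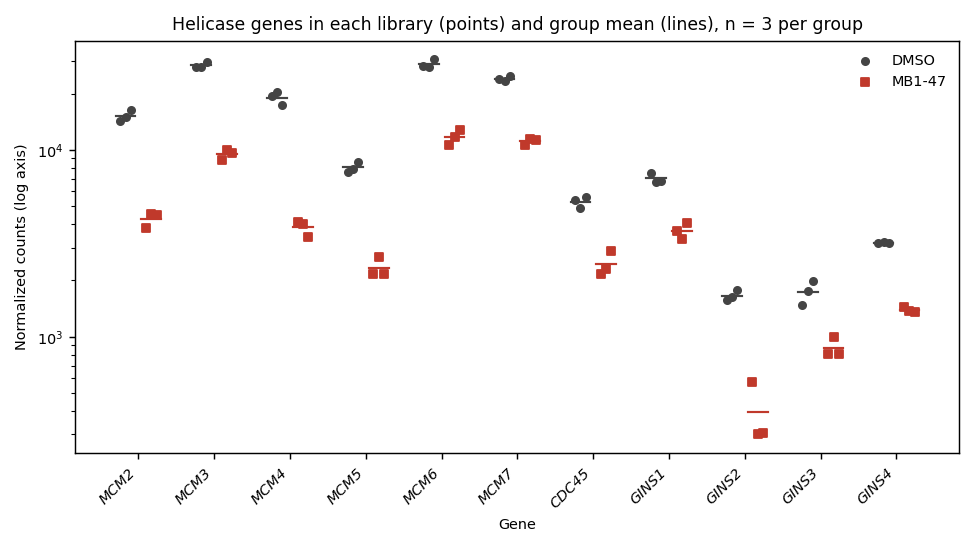
Normalized counts (y axis, log axis) of the 6 MCM2-7 genes, CDC45 and the 4 GINS genes (x axis) in each library; circles are DMSO, squares MB1-47 and short lines group means, with 3 libraries per group. For each gene the 3 MB1-47 points lie below the 3 DMSO points, and GINS2 in MB1-47 replicate 1 (575) lies above its other replicates (300 and 306).

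The E cyclins and the kinase that trigger origin firing all passed the threshold, with log2 changes from -2.13 to -0.28. CCNE2, an E cyclin that activates CDK2, read 2429, 2489 and 2475 with DMSO and 598, 541 and 545 with MB1-47 (-2.13 ± 0.11, adjusted p = 4.3e-07). CCNE1, the other E cyclin, read 376, 452 and 438 against 99.6, 128 and 115 (-1.88 ± 0.21). Both cyclins dropped to well under their DMSO range. CDC7, the kinase that phosphorylates MCM2-7, read 2225, 2059 and 2114 against 1805, 1812 and 1645, a small change of -0.28 ± 0.10 (adjusted p = 0.0428). DBF4, its activating subunit, read 3572, 3704 and 4343 against 3372, 2735 and 3109 and changed by -0.33 ± 0.11 (adjusted p = 0.0344). These calls were the weakest of the set. CDC7 missed the threshold in 9 of 15 alternatives (adjusted p from 0.0358 to 0.235), among them each of the 6 that left out a library. DBF4 missed it in 6 (0.0287 to 0.147), among them those without DMSO replicate 2, DMSO replicate 3, MB1-47 replicate 2 or MB1-47 replicate 3.

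The 10 polymerase genes among the members all fell, with a median of -0.92. POLD4, a polymerase delta gene outside the list, was higher and is described with the other replication genes. Polymerase alpha-primase lays down the RNA-DNA primers; its catalytic gene POLA1 read 8359, 7639 and 7855 with DMSO and 3470, 3236 and 3843 with MB1-47 (-1.18 ± 0.09). POLA2 changed by -0.999 ± 0.11, and the primase genes PRIM1 and PRIM2 by -0.68 ± 0.11 and -0.53 ± 0.14. Within polymerase delta, which copies the lagging strand, the accessory gene POLD2 read 4006, 4442 and 5289 against 1224, 1595 and 1680 (-1.61 ± 0.14). The catalytic gene POLD1 read 3298, 4258 and 4068 against 2914, 2257 and 2210 (-0.66 ± 0.13), and POLD3 changed by -0.61 ± 0.14. The groups of POLD1 came close through MB1-47 replicate 1 but did not overlap, and those of POLD2 were far apart. Of polymerase epsilon, which copies the leading strand, POLE, POLE2 and POLE3 changed by -0.84 ± 0.09, -1.08 ± 0.13 and -1.12 ± 0.09.

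PCNA, on chromosome 20 from 5114953 to 5126626, encodes the ring that clamps polymerases to DNA. It read 27236, 23076 and 26077 with DMSO and 7916, 7206 and 8251 with MB1-47, a log2 change of -1.71 ± 0.09 (adjusted p = 4.3e-07). The clamp loader RFC opens that ring with 5 subunits, and its 4 small ones all fell: RFC2 changed by -1.11 ± 0.11, RFC3 by -1.12 ± 0.11, RFC4 by -0.81 ± 0.11 and RFC5 by -0.75 ± 0.13. DSCC1, of the alternative loader that serves sister chromatid cohesion, changed by -1.04 ± 0.12. RFC1, the large subunit that only the standard loader has, read 11674, 9619 and 10135 with DMSO and 9397, 8841 and 10551 with MB1-47. Its groups overlapped, and the 95% interval of its log2 change ran from -0.34 to 0.09.

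Okazaki fragments are trimmed by the flap nuclease FEN1 and joined by DNA ligase 1. FEN1 read 4796, 4259 and 4537 with DMSO and 1501, 1643 and 1519 with MB1-47 (-1.54 ± 0.09, adjusted p = 9.3e-07). LIG1 read 1933, 2437 and 3234 against 1754, 1650 and 2190. The DMSO values of LIG1 were spread widely and overlapped those with MB1-47, and its change of -0.42 ± 0.18 did not pass (adjusted p = 0.0825; range over 15 alternatives 0.0133 to 0.312). Without DMSO replicate 1, the lowest, LIG1 passed at -0.60 (adjusted p = 0.0133), and without DMSO replicate 3, the highest, it stood at -0.23 (adjusted p = 0.312). The replicate number as a block, whose pairing the data did not bear out, also gave a call for LIG1 (adjusted p = 0.0185). RPA coats single-stranded DNA, and its genes RPA1, RPA2 and RPA3 changed by -0.79 ± 0.09, -0.39 ± 0.10 and -0.93 ± 0.17.

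All 4 fork protection genes fell. TIMELESS and TIPIN form a heterodimer that travels with the fork. TIPIN read 1327, 1080 and 1360 with DMSO and 599, 428 and 412 with MB1-47 (-1.40 ± 0.17), while TIMELESS read 7965, 8160 and 8037 against 6428, 6446 and 6845 (-0.29 ± 0.07, adjusted p = 0.0097). The values of TIMELESS varied little within groups, so that this small change passed; with equal library totals it was -0.17 (adjusted p = 0.0860). CLSPN, which encodes the checkpoint mediator claspin, changed by -0.94 ± 0.09, and WDHD1, which tethers polymerase alpha to the helicase, by -0.87 ± 0.09.

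Chromatin assembly and maintenance genes fell in all 3 cases, each by more than 2-fold. UHRF1, which reads hemimethylated DNA behind the fork and recruits DNMT1, lies on chromosome 19 from 4903080 to 4962154 and read 9950, 10318 and 10560 with DMSO and 2199, 2538 and 2257 with MB1-47 (-2.14 ± 0.09, adjusted p = 1.8e-07). CHAF1B read 3991, 3441 and 3842 against 1117, 1030 and 1011 (-1.83 ± 0.10), and CHAF1A 2887, 3345 and 2766 against 1243, 1430 and 1241 (-1.20 ± 0.11). Both encode subunits of CAF-1, which deposits histones on new DNA, and none of the 3 genes overlapped between groups.

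To ask whether partners of a step changed alike, the log2 ratio of 12 pairs was taken within each library and compared by an exact two-sided permutation test over the libraries, which cannot give a p below 0.1 with 3 against 3. A difference between log2 ratios is free of gene length and of any single scaling factor per library. The ORC1 to ORC2 ratio changed by -0.91, CDT1 to GMNN by 0.57, FEN1 to LIG1 by -1.12 and MCM10 to MCM8 by -0.78. In each of these the groups did not overlap (exact p = 0.1). The Benjamini-Hochberg adjusted value was 0.15 over 12 pairs. Those 12 include the added pairs named last, which were picked for their difference and lower the adjusted value, so it is not a planned one. For CDC6 to GMNN (-0.21, exact p = 0.2), CCNE1 to CCNE2 (0.25, exact p = 0.3), CDC7 to DBF4 (0.05, exact p = 0.7) and POLE2 to POLE3 (0.03, exact p = 0.6) the groups overlapped. With 1 library left out, CDC6 to GMNN ran from -0.32 (without DMSO replicate 1) to -0.12 (without DMSO replicate 2) and CCNE1 to CCNE2 from 0.14 (without MB1-47 replicate 2) to 0.39 (without MB1-47 replicate 1). Pairs added after their values were seen were TIPIN to TIMELESS (-1.11), MCM4 to MCM7 (-1.20), RFC2 to RFC1 (-0.98) and POLD2 to POLD1 (-0.96). None of the added pairs overlapped between groups (exact p = 0.1), and having been picked for their difference they are a description only.

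**Figure D4:**
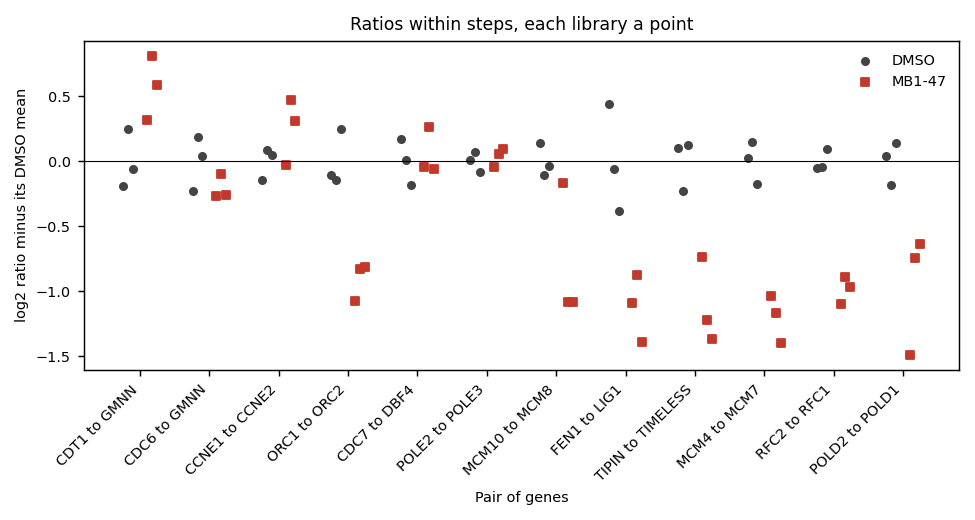
Log2 ratio of 12 pairs of genes (x axis) in each library, minus the mean of the DMSO libraries (y axis); circles are DMSO and squares MB1-47. The squares lie apart from the circles for CDT1 to GMNN (above) and for ORC1 to ORC2, MCM10 to MCM8, FEN1 to LIG1 and the 4 added pairs (below), and overlap them for the other pairs.

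Of 41 other genes of replication, 27 were lower (65.9%, against 19.8% of all genes tested), 3 were higher (7.32%, against 18.3%), 11 did not pass, and the median log2 change was -0.52. RRM2, the regulated subunit of ribonucleotide reductase, fell from 16103 ± 616 to 5153 ± 284 normalized counts (mean ± SD, n = 3; -1.64 ± 0.08 log2). SLBP, which binds histone mRNA, changed by -1.58 ± 0.14, CDC25A, a phosphatase that activates CDK2, by -1.55 ± 0.11 and DTL, the adaptor that targets CDT1 for destruction in S phase, by -1.37 ± 0.11. CDK2 itself changed by -0.97 ± 0.10. TOP2A, a topoisomerase that peaks in G2, was higher (0.36 ± 0.08), as were POLD4 (0.58 ± 0.20), the small subunit of polymerase delta, and RNASEH2B (0.38 ± 0.11). POLD4 missed the threshold without DMSO replicate 1, 2 or 3 or without MB1-47 replicate 1 or 2, where its change was 0.47 to 0.66, and also with the replicate number as a block (adjusted p = 0.0554) or with no intensity trend (adjusted p = 0.0832). RNASEH2B missed it without DMSO replicate 1 or 2 or MB1-47 replicate 1 or 2, and with no intensity trend (adjusted p = 0.101). CCNA2, the cyclin of S and G2, stood at 7282 ± 586 and 6396 ± 545 (-0.19 ± 0.09, adjusted p = 0.144). With 1 library left out the CCNA2 change ran from -0.24 (without MB1-47 replicate 3) to -0.12 (without MB1-47 replicate 2), and with equal library totals it was -0.06. In a list of 20 mitosis genes 3 were lower (15%, against 19.8% of all genes tested), 3 higher (15%, against 18.3%) and 14 did not pass (median 0.06), so the shares are near those of all genes.

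Some of the members share a start region with a gene read in the opposite direction. By GENCODE 29 on GRCh38, 22 members had a tested protein-coding gene on the other strand that started within 1000 bases of their own start. The share of all genes with such a neighbour was not counted, so this number is not a trait of the set. Of these 22 neighbours 10 were lower (45.5%, against 19.8% of all genes tested), 2 were higher (9.09%, against 18.3%) and 10 did not pass. Their median log2 change was -0.17. Some neighbours overlap the span of the member. Among the lower ones AP4M1, SMYD4 and NDUFAF6 did so, at 6.08%, 5.02% and 36.8% of the levels of MCM7, RPA1 and CCNE2. Others that overlap, such as TPRA1 and SLC25A40, were not lower. How reads in shared spans were assigned is not stated, so the values of overlapping neighbours are less certain. MCM4 and its neighbour PRKDC, whose starts are 2 bases apart on chromosome 8, both fell: PRKDC, a DNA repair kinase, went from a mean of 33680 to 15907 normalized counts (-1.07 ± 0.14). CDC45 and UFD1 (-0.87 ± 0.10), 244 bases apart on chromosome 22, likewise both fell. PCNA and CDS2, 160 bases apart on chromosome 20, did not move alike, with CDS2 at 5682 ± 981 and 6325 ± 559 (0.16 ± 0.12, adjusted p = 0.319). TPRA1 beside MCM2 (0.08 ± 0.12) and SOCS4 beside WDHD1 (0.11 ± 0.11) also did not pass, and SLC25A40 beside DBF4 rose (0.30 ± 0.09). LIPT2 beside POLD3 was higher as well (1.19 ± 0.40).

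**Figure D5:**
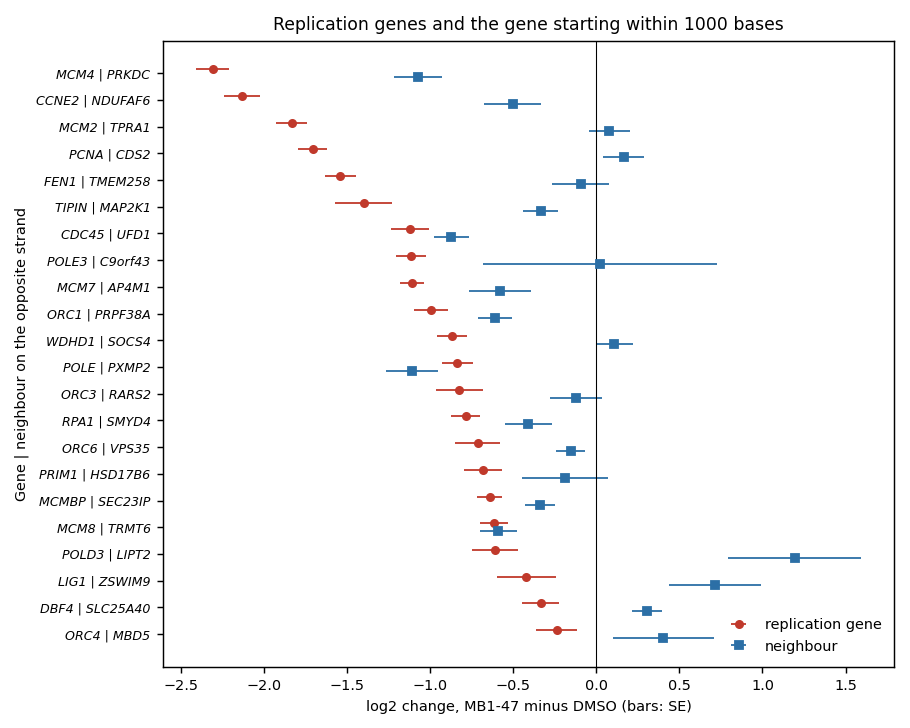
Log2 change with its SE (x axis) for the 22 replication genes (circles) and the gene that starts within 1000 bases on the opposite strand (squares), 1 pair per line, ordered by the change of the replication gene. Every circle lies below 0, while the squares run from -1.11 (PXMP2 beside POLE) to 1.19 (LIPT2 beside POLD3).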

How the data were processed

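Libraries were strand-specific total RNA-seq, per the labels' protocols. The deposited table holds 1 signal value per gene symbol and library, which the authors call DESeq normalized counts; kallisto 0.44.0, DESeq and build GRCh38.p13 come from the submitters' processing notes, while annotation, summing to genes and filters are not stated there. The values are not whole (62.9% to 69.9% of low values lay within 0.1 of a multiple of the best common step), so reads were not recovered and depth is unknown. Totals were 30788200 to 32667500 with DMSO and 28323700 to 29673900 with MB1-47, so those with MB1-47 were all lower. They are not depths. No pair of libraries shared a value above 0.

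Genes with a mean of at least 10 were fitted as log2(value + 1) with limma 3.58.1 (intensity trend) in R 4.3.3, without a replicate term, and p-values were adjusted by Benjamini-Hochberg over 13465 genes; fold changes are on that scale and understate low genes. Sets were described by counts and medians. Every member is named; of the other replication genes the text names the 4 largest rises (only 3 passed) and the 4 largest falls among called genes whose mean reached 50, with E2F1, MKI67, CCNA2 and CDK2 in any case. Members, lists and pairs were chosen with earlier results of these data known; neighbours and motifs were examined after the values were seen. Steps were tested on simulated data. Alternatives were pseudocounts of 0.5 and 5, no filter or a mean of 50, scaling by a trimmed mean of M values, quantile normalization, equal totals, no trend, a replicate block and each library left out; count tests were planned only for recovered reads. Figures used matplotlib 3.10.9.

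Spans of other protein-coding genes at 20% or more of a member's level overlap 3 members on the same strand in GENCODE 29 (PRIM1, FEN1, CHAF1B). On the opposite strand they overlap 9 (ORC4, GINS2, DBF4, CCNE2, PRIM1, RFC4, RFC5, RPA3 and CHAF1A). On the same strand NACA stood at 548% of the level of PRIM1, FADS2 at 138% of that of FEN1 and MORC3 at 71.8% of that of CHAF1B. On the opposite strand GSE1 stood at 258% of the level of GINS2, INTS8 at 295% of that of CCNE2 and EIF4A2 at 221% of that of RFC4. How reads in shared spans were assigned to genes, and whether strand was used, is not stated, so those values are less certain.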

Additional observations from a re-analysis of the deposited data

How the results depend on the processing

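Of the 51 members past the threshold, 47 stayed past it in all 15 alternatives, and the others, CDT1, CDC7, DBF4 and TIMELESS, missed it in at least 1. The count of lower members ran from 47 (equal library totals) to 52 (replicate block), and none was higher in any alternative. With equal totals the all-gene median shifted from 0.02 to 0.15, the split of all genes became 3335 higher and 2063 lower in place of 2458 and 2667, and the members' median moved to -0.87. With single libraries left out that median ran from -1.07 (without DMSO replicate 2) to -0.97. ORC2 turned to 0.0395 and RFC1 to 0.0030 with equal totals, and RFC1 to 0.0144 with quantile normalization, all without a call; with a library left out ORC2 ran from -0.17 to -0.04, ORC5 from -0.21 to -0.08 and RFC1 from -0.20 to -0.04. Lower genes among the firing kinase and E cyclins numbered 2 in place of 4 with equal totals or no trend, and 2 to 3 with a library left out (2 without DMSO replicate 2 or 3 or MB1-47 replicate 2 or 3). Okazaki maturation had 2 in place of 1 with the replicate block, and 1 to 2 with a library left out (2 without DMSO replicate 1). Higher genes among the other replication genes numbered 1 in place of 3 without a trend and 1 to 3 with a library left out (1 without DMSO replicate 1 or 2 or MB1-47 replicate 1 or 2). The CDC7 to DBF4 ratio turned from 0.05 to below 0 without DMSO replicate 3 or MB1-47 replicate 2, with a range of -0.0537 to 0.138 over left-out libraries. The POLE2 to POLE3 ratio turned from 0.03 to -0.0599 with quantile normalization and to -0.0065 without DMSO replicate 3, with a range of -0.0065 to 0.0740 over left-out libraries. The cause of these shifts was not tested.

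Same-numbered libraries of the groups did not deviate together (correlations 0.02, 0.06 and 0.01), and DMSO replicate 1 correlated best with MB1-47 replicate 3, so the numbers were not taken as pairs. With the replicate block 2531 genes were higher and 2715 lower, and the members' median was -0.997 as before; LIG1 gained a call and no other member's call changed. Of the other genes named, MKI67 gained a call with the block and POLD4 lost one. Depth is unknown, so no counting interval can be given.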

Other observations

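Of 17 genes for E2F factors, their partners and pocket proteins, 8 were lower with MB1-47 (47.1%, against 19.8% of all genes tested), 2 were higher (11.8%, against 18.3%) and 7 did not pass. E2F1, an activator of S-phase genes, read 4049, 4541 and 4816 normalized counts in DMSO replicates 1, 2 and 3 and 1775, 1792 and 1603 in MB1-47 replicates 1, 2 and 3 (-1.37 ± 0.10). The genes that were higher, named after their values were seen, were RBL2 (0.74 ± 0.08), which encodes a pocket protein of resting cells, and LIN54 (0.49 ± 0.12), the DNA-binding subunit of the complex that this pocket protein joins. MKI67, a marker of cycling cells, read 6980, 9721 and 6896 with DMSO and 8470, 10292 and 10027 with MB1-47. Its groups overlapped through DMSO replicate 2, and the change of 0.30 ± 0.13 did not pass (limma adjusted p = 0.10); it ran from 0.21 (without DMSO replicate 3) to 0.46 (without DMSO replicate 2, adjusted p = 0.00702) with 1 library left out. MKI67 also passed with quantile normalization (0.41, adjusted p = 0.0469), equal library totals (0.43, adjusted p = 0.0411) and the replicate block (0.30, adjusted p = 0.0321).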
